A study of Arabidopsis thaliana with 5 samples.

Results

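Genes of meiotic recombination and synapsis were examined in unopened flower buds of *ask1* plants and of the wild-type, L*er*. The genes are *SDS*, *ZYP1b* and *ATMND1*, found by their gene symbols in the platform's annotation of the array, and they make up 3 of 13356 named genes and 3 of 22589 rows tested. Each of the 3 is read by 1 probe set. Total RNA of the buds was measured on Affymetrix ATH1 arrays, 3 arrays of *ask1* and 2 of L*er*, all from separate biological replicates according to the labels. The *ask1* plants are homozygous for the mutation (ask1-/-) in the Landsberg *erecta* (L*er*) background, and neither genotype received a treatment. Homozygotes were recognised by how they looked within segregating families. A sample is a whole bud cluster, meristem included, so that it mixes organs and stages, of which cells in meiosis are a small part. In such a sample, fewer cells of a type and less RNA per cell cannot be told apart.

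In meiosis, programmed breaks in the DNA are repaired from the homologous chromosome, and part of these repairs become crossovers that hold the homologs together until they separate. The protein pair MND1 and HOP2 helps the recombinase DMC1 to invade the homologous DNA. While this goes on, the synaptonemal complex joins the axes of the homologs along their length, and ZYP1 is the protein that spans the space between the axes in Arabidopsis. SDS is a cyclin-like protein of meiotic cells that is needed for homologs to pair and recombine. The *ask1* mutant is known for defects in male meiosis, and the arrays allow the RNA of these 3 genes to be compared between the genotypes.

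All values are log2 signals that the authors made with RMA, which corrects the background, sets the arrays to a common distribution and turns the probes for a transcript into 1 number. The median signal per array ranged from 7.07 to 7.18, and between 22.8% and 24.5% of probe sets had a signal under 5, a range in which background flattens ratios. Any 2 arrays had a Pearson correlation across probe sets between 0.983 and 0.996, and the highest was that of *ask1* replicates 1 and 3, with *ask1* replicate 2 closer to both L*er* arrays than to the other *ask1* arrays. Between *ask1* replicates 1 and 3, 24 probe sets were at least 2-fold apart, against 292 to 561 for every other pair. The reason was not tested. The mutated gene, *ASK1*, carries no gene name among the rows here, so the genotype of each array was not checked by it. With so few arrays, the precision of all ratios given here is limited by their number.

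All 3 genes had lower mean signals in *ask1*, by 1.27-fold to 1.34-fold, and none passed the test adjusted over all rows. *ATMND1*, on chromosome 4 of TAIR10.1 from 14382819 to 14385465 (AT4G29170), encodes the Arabidopsis MND1. The 3 *ask1* arrays, replicates 1 to 3, gave log2 signals of 6.80, 6.61 and 6.83, and the 2 L*er* arrays gave 7.17 and 7.16. Every *ask1* array lay below both L*er* arrays, and the L*er* arrays differed from each other by only 0.01. The *ask1* mean was 6.75 ± 0.12 (SD, n = 3), against 7.16 ± 0.01 (SD, n = 2) for L*er*. This is a log2 ratio of -0.42 (standard error, SE, 0.11; 95% confidence interval -0.68 to -0.16), or 1.34-fold lower in *ask1*. The unadjusted p was 0.00781 and the adjusted p = 0.459 from limma.

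*SDS* lies on chromosome 1 from 5079226 to 5082536 (AT1G14750). Log2 signals of 5.20, 4.96 and 5.30 were found for *ask1* replicates 1 to 3, and of 5.79 and 5.23 for the L*er* arrays 1 and 2. Here the genotypes overlapped, since *ask1* replicate 3 was above L*er* replicate 2, and L*er* replicate 1 stood above the other 4 arrays. The *ask1* mean of 5.15 ± 0.18 (SD, n = 3) was 1.28-fold lower than the L*er* mean of 5.51 ± 0.40 (SD, n = 2). The log2 ratio of -0.36 had an SE of 0.20 and a 95% confidence interval from -0.84 to 0.12, with an adjusted p = 0.822 from limma. The difference between the genotypes was thus smaller than the difference of 0.57 between the L*er* arrays themselves.

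*ZYP1b* (AT1G22275) lies on chromosome 1 from 7867067 to 7872715, and its paralog *ZYP1a* lies beside it from 7859630 to 7865263, 1803 bases away. The paralogs encode closely similar proteins, no row here is named for *ZYP1a*, and how far the probe set of *ZYP1b* also reads *ZYP1a* RNA was not tested. The arrays of *ask1*, replicates 1 to 3, read 4.84, 4.83 and 4.84 on the log2 scale, and those of L*er* read 5.40 and 4.97. The *ask1* arrays were nearly equal, with a range of 0.0185, and all lay below both L*er* arrays. Only 0.655% of all rows had a smaller range over these arrays. The signal was under 5 in every array other than L*er* replicate 1, in the range where background compresses ratios. The mean was 4.84 ± 0.01 (SD, n = 3) for *ask1* arrays against 5.18 ± 0.30 (SD, n = 2) for L*er* arrays, a log2 ratio of -0.35 (SE 0.14, 95% confidence interval -0.70 to 0.005) or 1.27-fold lower in *ask1*. The adjusted p was 0.719 from limma.

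**Figure D1:**
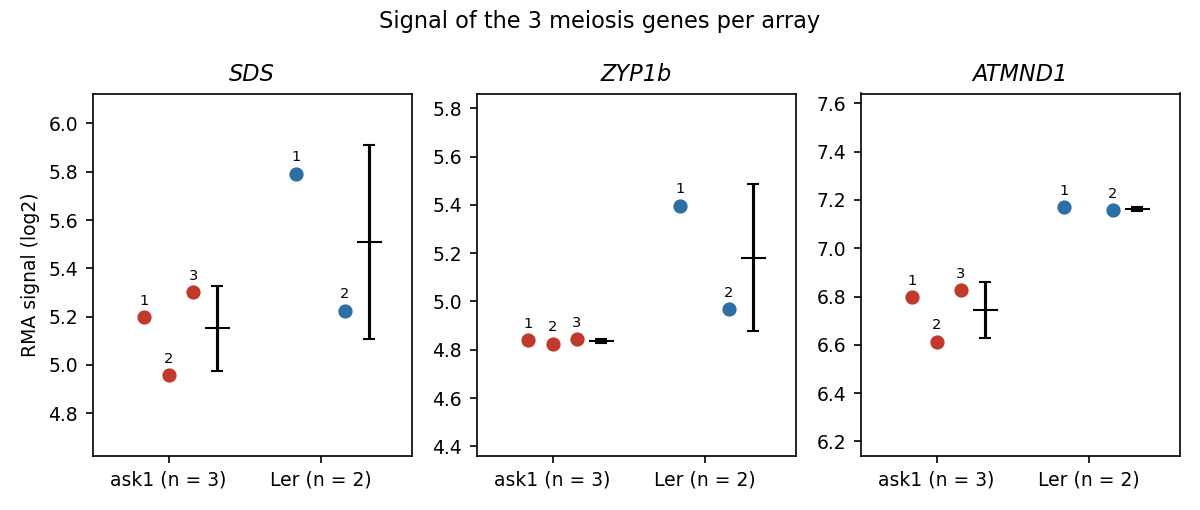
RMA log2 signal (y axis) of *SDS*, *ZYP1b* and *ATMND1* in each array, with *ask1* in red and L*er* in blue, replicate numbers above the points and the mean with its SD in black; every y axis spans the same range of log2 units. The 2 L*er* arrays of *ATMND1* nearly coincide at 7.17 and 7.16, above all *ask1* arrays, while for *SDS* and *ZYP1b* L*er* replicate 1 stands apart and L*er* replicate 2 is near the *ask1* arrays.

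By limma, 0 of the 3 genes passed at an adjusted p under 0.05, where 0.0133% of all rows did (3 rows, none of them a named gene). At an unadjusted p under 0.05, 1 of the 3 was lower in *ask1* (*ATMND1*) and none was higher, beside 2.97% of all rows lower and 3.98% higher, or 6.95% in either direction. The methods' t-test also gave 0 adjusted calls among the 3 genes (0% of all rows) and 1 unadjusted call, again *ATMND1*, beside 5.85% of all rows, 2.85% with lower signals. Taking the unadjusted p of limma, none of the 3 genes met both criteria (a 2-fold ratio or more, with p under 0.05). Of all rows, 0.46% met both by limma with higher and 0.128% with lower signals in *ask1*, 0.589% (133 rows) in all. With the p of the methods in place of that of limma, 68 of the 22589 rows met both criteria, and again none of the 3 genes. With all 5 arrays in limma, the 95% confidence intervals of all 3 lay within a 2-fold difference, as for 93.9% of all rows. Under 5 of 14 alternatives the interval of *SDS* reached past a halving, with a lower bound of -1.01 in 3 of them, of -1.09 without L*er* replicate 2 and lower still by the methods' t-test, and under 0 those of *ZYP1b* and *ATMND1*. In 2 of the 3, *ATMND1* and *ZYP1b*, every *ask1* array was below every L*er* array. This order occurred in 10.7% of all rows, and the opposite order in 10.2%. An exact permutation test over the 5 arrays gave p = 0.1 (2-sided) for these 2 genes, the smallest that 3 against 2 arrays allow, and p = 0.3 for *SDS*.

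**Figure D2:**
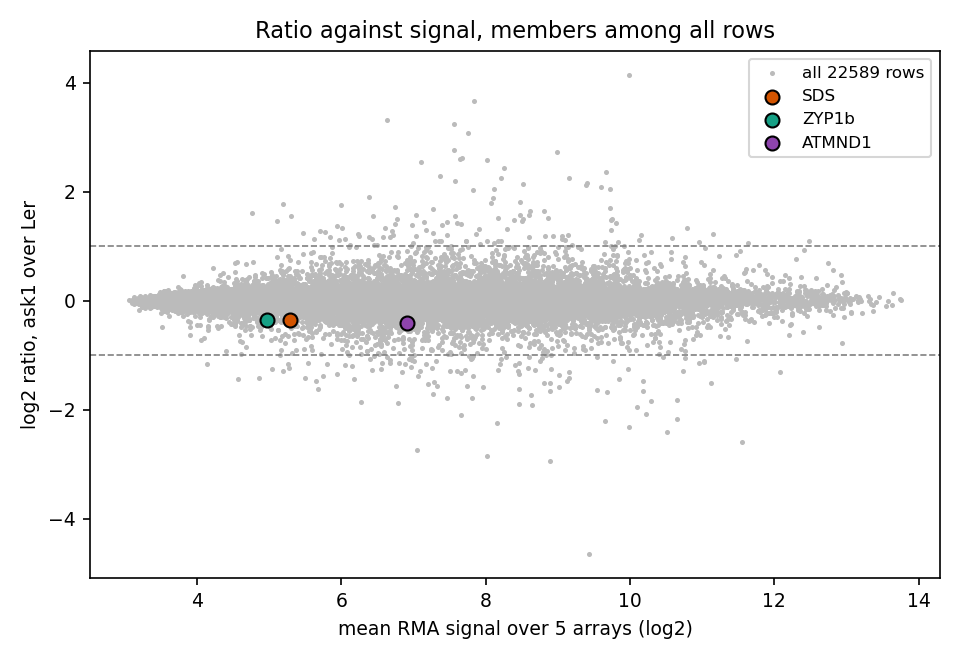
Log2 ratio of *ask1* over L*er* (y axis) against the mean log2 signal over the 5 arrays (x axis) for all 22589 rows in grey, with *SDS*, *ZYP1b* and *ATMND1* as coloured points and dashed lines at 2-fold. The 3 genes lie on the lower side of the cloud, well inside the 2-fold lines, at ratios of -0.36, -0.35 and -0.42.

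Among all rows the 3 ratios were low but not extreme. Of all rows, 3.32% had a lower log2 ratio than *ATMND1*, 4.52% a lower one than *SDS* and 4.86% a lower one than *ZYP1b*. The mean signal of *ATMND1* was above that of 47.2% of rows, that of *SDS* above 28.1% and that of *ZYP1b* above 23.3%. *ATMND1* is therefore the gene of the 3 with a signal in the middle of the array.

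The 5 arrays fell in much the same order for each of the 3 genes. L*er* replicate 1 was the highest array for all 3 and *ask1* replicate 2 the lowest, which held for 24.3% and 23.7% of all rows. Only *SDS* departed from this order in between, with *ask1* replicate 3 above L*er* replicate 2. The size of the lead of L*er* replicate 1 over L*er* replicate 2 differed between the genes: 0.57 for *SDS* and 0.43 for *ZYP1b*, on the log2 scale, against 0.01 for *ATMND1*. Differences between the L*er* arrays were smaller than that of *SDS* in 94.7% of rows, than that of *ZYP1b* in 89.1% and than that of *ATMND1* in 4.17%.

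The ratios of *SDS* and *ZYP1b* therefore depended on which L*er* array was used, and that of *ATMND1* hardly did. With 2 L*er* arrays, the values do not show which of them is the less typical. Without L*er* replicate 1 the log2 ratio was -0.07 for *SDS* and -0.13 for *ZYP1b*, and without L*er* replicate 2 it was -0.64 and -0.56. For *ATMND1* these values were -0.41 and -0.42. Leaving out *ask1* replicate 2, the lowest array, gave -0.26 for *SDS*, -0.34 for *ZYP1b* and -0.35 for *ATMND1*. The last had an adjusted p = 0.235 from limma, the lowest of that gene under any alternative.

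**Figure D3:**
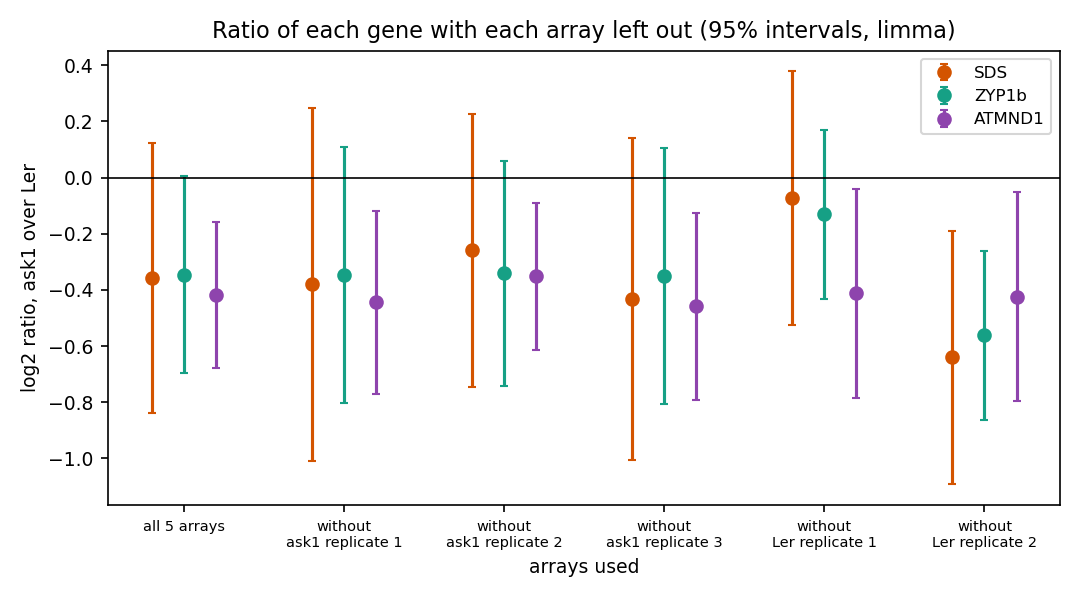
Log2 ratio of *ask1* over L*er* (y axis) with its 95% confidence interval from limma for *SDS*, *ZYP1b* and *ATMND1*, with all 5 arrays and with each array left out in turn (x axis). The point of *ATMND1* stays between -0.46 and -0.35. Those of *SDS* and *ZYP1b* move to -0.07 and -0.13 without L*er* replicate 1, and to -0.64 and -0.56 without L*er* replicate 2.

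Further genes of meiosis were taken from a list of 61 loci grouped by role, of which 14 are named among the rows here, the 3 genes above included. Over the 14 the median log2 ratio was -0.17, with 10 below 0 and 4 above, beside a median of -0.01 and 52.5% below 0 among all rows. Without the 3 genes above, the median of the other 11 was -0.12, with 7 below 0. No gene of the 14 was called by limma after adjustment (0 of 14, beside 0.0133% of all rows). At an unadjusted p under 0.05 there were 2 with lower signals, *ATMND1* and AT3G27120, and 0 with higher ones. Of all rows, limma called 2.97% lower and 3.98% higher at this p. The methods' t-test gave the same counts, and limma with a variance that depends on the signal called 2 with lower signals at an unadjusted p, *ATMND1* and *ZYP1b*. Of all rows, the methods' t-test called 2.85% lower at an unadjusted p, and the latter limma fit called 2.72% lower and 6.53% in either direction, with 0.0133% after adjustment. With all 5 arrays in limma, the 14 intervals lay within a 2-fold difference, as for 93.9% of all rows. L*er* replicate 1 was above L*er* replicate 2 in 11 of the 14 genes (51.7% of all rows), and highest of all arrays in 9 (24.3% of all rows). Without the 3 genes above, these counts were 8 and 6 of 11.

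Of the genes for entry into meiosis and its cycle, only *SDS* is named among 14 loci. Of 11 loci of the chromosome axis and synapsis, *ZYP1b* and AT4G24710 are named, and AT4G24710 had a log2 ratio of -0.11 (SE 0.13). Break formation is the work of *SPO11-1* and *SPO11-2*, which are related to topoisomerases and cut the DNA, and of their partners. The 4 of 7 loci measured there ranged from -0.23 for *DFO*, which is needed for breaks to form, to 0.13 for AT1G60460. *SPO11-1* had a log2 ratio of -0.21 with 5.12 in *ask1* replicate 2 and 5.55 to 5.71 in the other 4 arrays, so that 1 array set it apart. *SPO11-2* had a ratio of 0.005 (95% confidence interval -0.24 to 0.25).

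Of the genes of break repair and strand exchange, *ATMND1* alone is named among 14 loci, so its partner *HOP2* and the recombinase gene *DMC1* are not reported.

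Crossover formation and its limits had the most loci measured, 6 of 15. The lowest was AT3G27120, which read 6.24, 6.27 and 6.44 (log2) in *ask1* and 6.70 and 6.58 in the wild type. Its groups did not overlap, and its log2 ratio was -0.32 (SE 0.11, unadjusted p = 0.0254 and adjusted p = 0.621 from limma). The highest was *RCK*, also known as *MER3*, which encodes a helicase of crossover formation, at 0.12 (SE 0.19). Its L*er* arrays, at 6.20 and 5.61, enclosed all *ask1* arrays. AT1G12790 had a ratio of -0.27, *FANCM*, a helicase gene that limits crossovers, of -0.13 and *RECQ4A*, a further helicase gene with such a role, of -0.12. *TOP3A*, which encodes a topoisomerase that acts with RECQ4 helicases, had 0.02 with an interval from -0.21 to 0.25. *EME1A*, whose product forms a nuclease with MUS81 and which was found by a later search of the gene names, had -0.015. In this group the genes thus lay on both sides of 0.

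**Figure D4:**
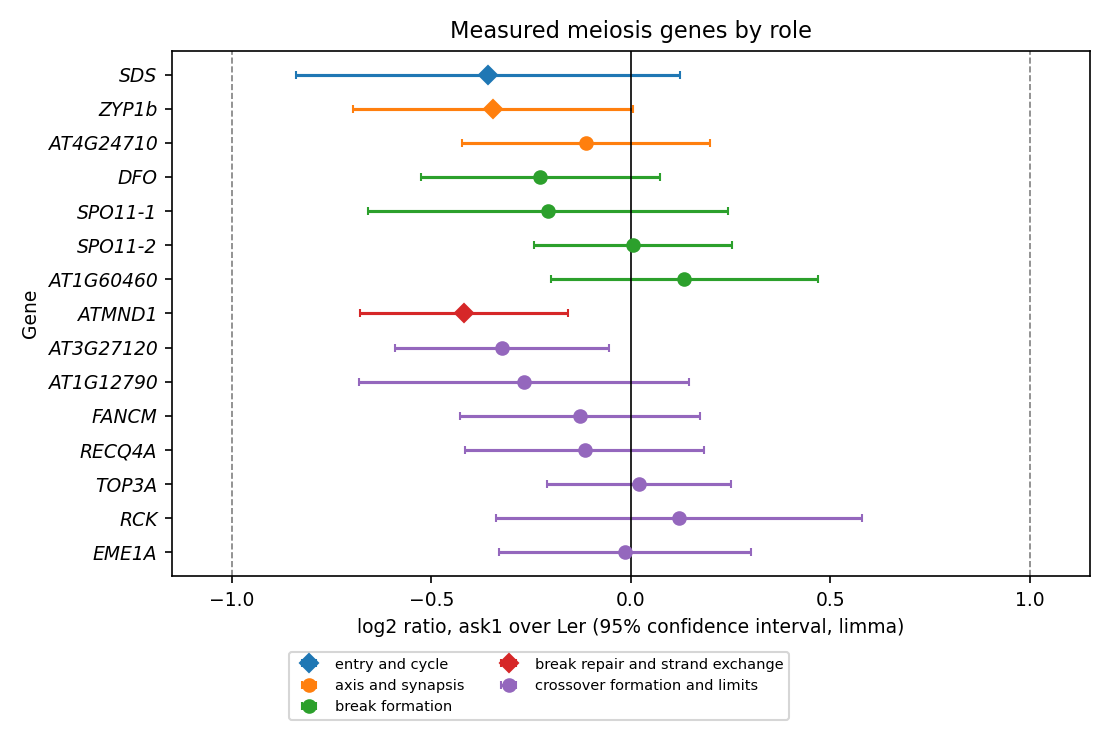
Log2 ratio of *ask1* over L*er* (x axis) with its 95% confidence interval from limma for the 14 measured genes of the meiosis list and for *EME1A* (y axis), coloured by role, with diamonds for *SDS*, *ZYP1b* and *ATMND1* and dashed lines at 2-fold. The intervals of *ATMND1* and AT3G27120 lie below 0, and all intervals lie within the 2-fold lines.

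Genes of other cells in the bud were read beside the 3 genes. Of 18 loci of the tapetum, the anther layer that feeds the developing pollen, 3 are named here, all with lower means in *ask1* (median log2 ratio -0.64), and 0 passed the adjusted test or an unadjusted p under 0.05 by limma. AT5G07230 measured 8.98, 8.62 and 9.38 in the *ask1* arrays and 11.46 and 8.31 in the L*er* arrays, each in order of replicate number. *AMS*, a transcription factor gene of the tapetum, measured 4.80, 4.39 and 4.74 in *ask1* and 5.96 and 4.61 in L*er*. In both, L*er* replicate 1 stood above the other 4 arrays, as in *SDS* and *ZYP1b*, and L*er* replicate 2 lay below at least 2 of the *ask1* arrays. *EMS1*, a receptor kinase gene needed to form the tapetum, had 9.74, 9.39 and 9.81 in *ask1* and 9.99 and 9.83 in L*er*. Summed as a mean over the 3 loci, the signal was 7.47 to 7.98 in *ask1* and 9.14 and 7.58 in L*er* replicates 1 and 2. Without L*er* replicate 1 the median ratio of the list was 0.03. The part of this difference between the L*er* arrays in the ratios of *SDS* and *ZYP1b* was not tested. The ratio of *ATMND1* was as large without L*er* replicate 1, at -0.41.

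**Figure D5:**
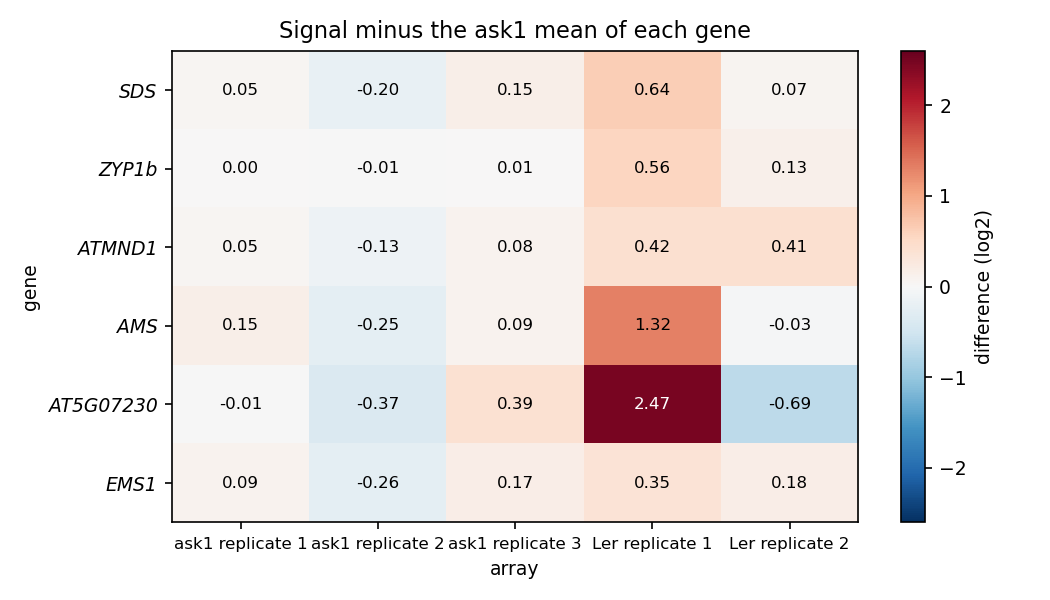
Log2 signal of each array minus the gene's own *ask1* mean, for *SDS*, *ZYP1b* and *ATMND1* and the 3 measured tapetum loci *AMS*, AT5G07230 and *EMS1* (y axis) in the 5 arrays (x axis), with red for values above the *ask1* mean and blue for values below it. L*er* replicate 1 is the highest array in all 6 rows, at 2.47 above the *ask1* mean in AT5G07230, while L*er* replicate 2 is at 0.41 in *ATMND1* and between -0.69 and 0.18 in the other rows.

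Of 9 pollen loci, 1 is named, the male gamete histone gene *MGH3*, with a log2 ratio of -0.12 and signals from 5.18 to 5.44. Of 19 loci of the mitotic cycle, 2 are named, the mitotic kinase gene *AUR1* at 0.06 and *HTR12*, the centromeric histone H3 gene, at -0.22. Neither of these had an unadjusted p under 0.05. Of 10 loci of floral identity, *UFO* alone is named, and its signal was between 5.99 and 6.29 in all arrays (log2 ratio -0.08). Floral identity was thus read from 1 gene of this list only.

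The named genes most like each of the 3 over the 5 arrays were found by Pearson correlation among about as many genes for each, 3012 to 3013 with a mean signal of at least 5 and an SD over the arrays of at least 0.2. For *ATMND1* these were AT2G26390 (r = 0.998), AT3G17160 (r = 0.995) and AT5G53140 (r = 0.988), and 27 genes reached 0.95. For *SDS* they were AT3G21620 (r = 0.995), AT4G25730 (r = 0.995) and AT4G32105 (r = 0.992), and 64 genes reached 0.95. For *ZYP1b* they were AT1G44890 (r = 0.994), AT3G29075 (r = 0.994) and *rpoC2* (r = 0.992), the last a gene of the chloroplast RNA polymerase, with 49 genes at 0.95. With 5 arrays shared by all genes these values describe the spacing of the signals over the arrays, not their exact order. A single high array can weigh heavily, as L*er* replicate 1 did in AT3G21620, at 6.16 against 4.66 to 5.25 in the others. None of the 9 genes is on the meiosis list. Only 14 of its 61 loci are named here, and the filters on signal and SD removed some of these. So few were left to compare that this absence says little.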

How the data were processed

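Floral bud RNA of 3 *ask1* and 2 L*er* samples was hybridised to ATH1 arrays. The deposited values are log2 signals that the authors made from the scans with RMA in R; its version is not given in the sources used here. The study made further L*er* arrays, which are not analysed here, and whether RMA was run over all arrays together is not given in the sources used here. RMA compresses ratios of dim probe sets. Of 22746 probe sets, 13513 are paired with 1 gene in the platform's table, 503 with several and 8730 with none. Each gene was represented by its brightest probe set, which left out 157 dimmer ones, and probe sets with several genes or none stayed as rows, 22589 in all. Positions come from RefSeq's TAIR10.1 table.

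The linear model was that of limma (version 3.58.1, under R 4.3.3) with eBayes moderation, 2-sided, with p-values adjusted by Benjamini-Hochberg across the whole table, called at under 0.05. The script was tested on simulated data. No set test was run. The 3 genes and all gene lists (meiosis, tapetum, pollen, mitotic cycle, floral identity) were chosen with earlier results of these data known. Named genes were the 3 genes, the highest and lowest of each role and those at an unadjusted p under 0.05, plus the 3 most correlated per gene. The other measured crossover genes, *SPO11-1*, *SPO11-2* and *EME1A* were added to these after the rule. As alternatives, each array was left out in turn, *ask1* replicates 1 and 3 were averaged, a replicate block was fitted, rows with a mean signal under 5 were dropped, every probe set was kept as a row, and array weights, limma-trend, median centring, quantile normalization and the methods' t-test were used.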

Additional observations from a re-analysis of the deposited data

How the results depend on the processing

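The log2 ratio kept its direction under all alternatives run, 14 for *SDS* and *ATMND1* and 13 for *ZYP1b*, which the filter on dim rows removes, and none of the 3 genes passed the adjusted test under any of them. The ratio ranged from -0.64 to -0.07 for *SDS*, from -0.56 to -0.13 for *ZYP1b* and from -0.46 to -0.35 for *ATMND1*, and their lowest adjusted p values were 0.516, 0.397 and 0.235 from limma. The replicate numbers of the genotypes were not shown to pair the arrays (correlations of deviations of -0.26 and -0.01, over 2 pairs). With the replicate block the ratios were -0.43, -0.35 and -0.46, 2 rows passed and 156 met both criteria. The 3 rows past the adjusted test were 0 with the methods' t-test, 1 with quantile normalization, 0 with *ask1* replicates 1 and 3 averaged and 0 to 373 without 1 array, the highest without *ask1* replicate 2. The 133 rows that met both criteria were 68 with the methods' t-test, 235 with array weights and 95 to 342 without 1 array. The cause was not tested. The median of the meiosis list went from -0.24 to -0.08 over all alternatives and that of the tapetum list from -1.32 to 0.03. The median of the mitotic cycle genes, -0.08, was 0.02 without *ask1* replicate 2. Signals of *ZYP1b* and *SDS* near background limit what their ratios can show.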
